A study of Mus musculus with 18 samples.

Results

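The data compare label-retaining cells with unlabelled cells of the same sort gate in the mouse intestinal crypt: 6 arrays of YFP-LRC against 6 arrays of LCC, out of 18 arrays in the series, paired by the mouse number in the sample titles. Both populations came from the same 6 female mice, aged 99 to 109 days, of a strain that carries a histone H2B-YFP fusion driven by the Cyp1a1 promoter. All mice had received βNF, an agonist of the aryl hydrocarbon receptor that switches this promoter on, and cells were taken 10 days later. YFP-LRCs were CD24+, UEA-1- and YFP+, and LCCs were CD24+, UEA-1- and YFP-, where CD24 is a surface glycoprotein and UEA-1 a lectin that binds fucosylated glycans. The remaining 6 arrays held the CD24+, UEA-1+ Paneth cells of the same mice, and they entered the statistical fit only to help estimate mouse effects and spread. For each population 30000 cells were sorted, and 8 ng of RNA was amplified and hybridised to Mouse Exon 1.0 ST arrays. The label reports cell division only in cells in which the induced Cyp1a1 promoter had been active, so an unlabelled cell had either divided or never carried label. No probe set measures the YFP fusion itself, and Cd24a has no probe set of its own.

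The crypt epithelium renews continuously from Lgr5-positive stem cells at its base. Their daughters become absorptive enterocytes when Notch signalling is active, or secretory cells (Paneth, goblet, enteroendocrine and tuft cells) when the transcription factor Atoh1 is active. A nuclear histone label is diluted at each division, so cells that still carry it have divided little since the pulse.

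All values below are log2 values of the authors' array summary. A gene's value on an array is the median over the probe sets that map to that symbol alone, so that 16358 genes were measured, typically by 11 probe sets (the median). A difference is YFP-LRC minus LCC, with its standard error from a limma model with the mouse as a block, and n is 6 mice throughout. Genes with an adjusted p below 0.05 (limma, Benjamini-Hochberg over all 16358 genes) are the called genes. Since the samples are bulk RNA, fewer cells of a type and less RNA per cell cannot be told apart.

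The sort labels were set against marker genes first. Epcam, the epithelial adhesion molecule, averaged 10.94 ± 0.09 (SD) in YFP-LRC and 10.58 ± 0.18 in LCC, against a median of 6.54 over all gene values. The mean of 7 epithelial markers reached 10.29 in YFP-LRC and 10.22 in LCC, and was higher in YFP-LRC in 5 of 6 mice, by 0.39 on average. These 7 genes lay at percentiles 87.3 to 99.7 of mean value among all genes. In the fifth of the genes with the highest mean values the median difference was 0.38, close to that of these markers. The mean of 4 stem cell markers (Lgr5, Ascl2, Smoc2, Axin2) was 7.74 to 8.17 in YFP-LRC and 6.98 to 7.53 in LCC, higher in YFP-LRC in 6 of 6 mice by 0.78 on average. The mean of 5 enteroendocrine markers was higher in 6 of 6 mice by 0.46, that of 5 Paneth markers in 5 of 6 mice by 0.64, and that of 4 goblet markers in 5 of 6 mice by 0.21. The goblet markers were split, with Muc2 (1.29) and Clca1 (0.61) above 0 and Tff3 (-0.34) and Zg16 (-0.71) below. The means of 4 myeloid and 4 stromal markers were lower in YFP-LRC in 6 of 6 mice, by -0.39 and -0.24, and that of 5 T cell markers in 5 of 6 mice, by -0.23. Of all these myeloid, stromal and T cell markers only the myeloid gene Tyrobp was called (-0.89). Cyp1a1, whose promoter drives the label, was not called (0.20 ± 0.19, adjusted p = 0.559).

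The LCC arrays resembled the other arrays less than the YFP-LRC arrays did. Each array was correlated with the other 17, and the median of these coefficients was 0.825 to 0.938 in LCC and 0.916 to 0.950 in YFP-LRC, higher in YFP-LRC in 6 of 6 mice (exact paired sign-flip permutation test, 2-sided, p = 0.0312, the smallest that 6 mice allow). The residual spread of an array is the interquartile range, over probe sets, of its deviations from the mean of its population. It has no mouse term, so differences between mice enter it too. Residual spread was 0.731 to 0.905 in LCC and 0.518 to 0.721 in YFP-LRC, lower in YFP-LRC in 6 of 6 mice (the same exact test, p = 0.0312). Both measures therefore move with the comparison, and their part in the results was not tested beyond the fits given below. One label also stands apart: the litter given for the YFP-LRC array of mouse 6 differs from that of the other arrays of mouse 6.

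Label-retaining cells differed from unlabelled cells at 1417 of 16358 genes (8.66%), and most of the called genes were higher in the label-retaining cells. Higher genes numbered 1218 (7.45%) and lower genes 199 (1.22%). At least 2-fold differences were found for 286 higher genes (1.75%) and 13 lower genes (0.0795%). Of the calls, 86.0% were higher, but this split depends on scaling: after a repeated quantile normalization of the gene values 549 were higher and 417 lower (56.8% higher), and with each array centred on its median 728 and 420 (63.4%). The median difference of all genes was 0.04 as deposited, -0.04 after repeated quantile normalization and -0.06 after centring. Of the 1417 called genes, 1107 differed in the same direction in all 6 mice.

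The counts also rested on single mice and arrays. Leaving out the LCC array of mouse 1 gave 2133 higher and 374 lower genes, and leaving out mouse 2 gave 234 and 28, mouse 3 gave 236 and 28, mouse 4 gave 561 and 63, and mouse 5 gave 288 and 53. Leaving out any 1 YFP-LRC array gave 461 to 693 higher and 65 to 109 lower genes, and leaving out the LCC array of mouse 2, 3, 5 or 6 gave 443 to 727 and 70 to 103. Without mouse 6, whose litter labels differ, 538 were higher and 83 lower, and without its YFP-LRC array alone 682 and 109. With the residual spread of each array as a covariate no gene was called by limma (703 had an unadjusted p under 0.05), and in mice 1 and 4 alone, with 2 residual degrees of freedom, none was called either (1542 unadjusted). Without the LCC arrays of mice 5 and 6, the 2 that correlated least with the others, 76 were higher and 20 lower. A narrower set of 139 higher genes (0.85%) and 14 lower genes (0.0856%) kept its call in each of 24 fits that left out 1 mouse or 1 array. All 153 of these kept their sign with the covariate and in mice 1 and 4 alone. Their median absolute difference there was 1.05 and 0.80, against 1.07 in the fit with all arrays. Both fits reuse arrays on which these genes were chosen, so the kept signs are no independent check. Among all called genes, 1386 kept their sign with the covariate and 1405 in mice 1 and 4. The genes described first below belong to the narrower set of 153.

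**Figure D1:**
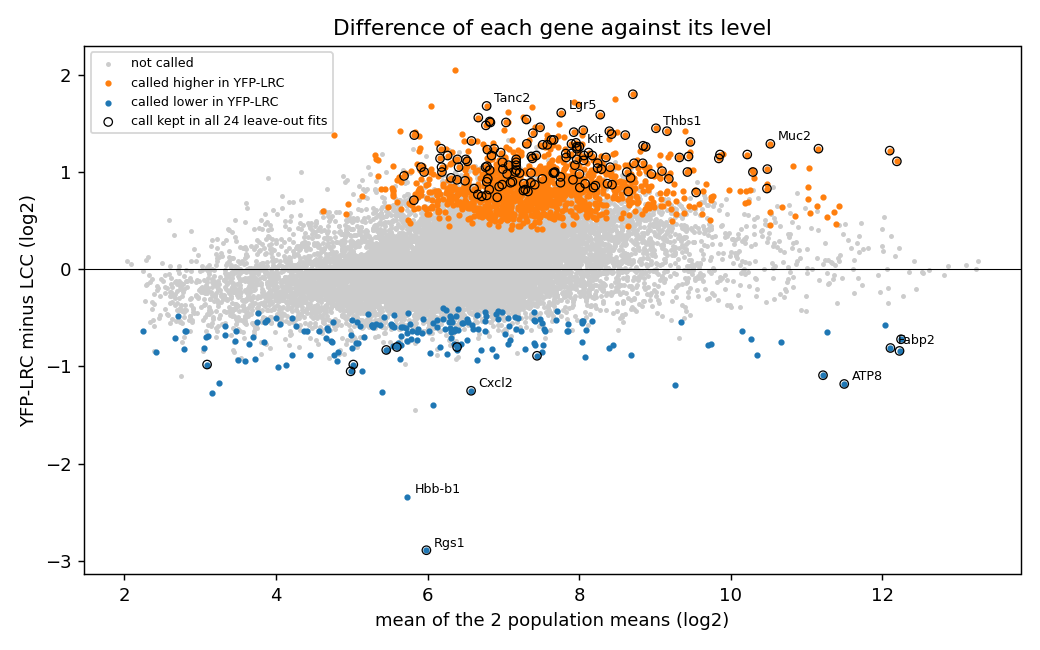
Difference between the populations (YFP-LRC minus LCC, log2) of each of 16358 genes against the mean of the 2 population means (log2). Orange points are the 1218 genes called higher, blue points the 199 called lower, and black rings the 153 genes whose call was kept in all 24 leave-out fits; called higher genes lie mostly right of the middle of the level axis.

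The surface receptors Lgr5 and Kit, the mucin Muc2 and the matrix glycoprotein Thbs1 were higher in the label-retaining cells of all 6 mice. Lgr5, the R-spondin receptor of crypt base stem cells, had a lowest, median and highest value of 8.20, 8.60 and 8.92 in YFP-LRC and 6.50, 6.78 and 7.64 in LCC. Kit, the receptor of stem cell factor, had 8.55, 8.61 and 8.81 in YFP-LRC and 7.09, 7.38 and 7.69 in LCC. Muc2, the gel-forming mucin of goblet cells, had 10.74, 11.14 and 11.59 in YFP-LRC and 9.42, 9.90 and 10.49 in LCC. For these 3 genes every YFP-LRC array was above every LCC array, a separation seen at 1.94% of all genes in this direction. Thbs1, thrombospondin-1, a secreted regulator of the extracellular matrix, had 8.84, 9.67 and 10.98 in YFP-LRC and 7.57, 8.27 and 9.22 in LCC. Its groups overlapped, with the LCC array of mouse 6 (9.22) above the YFP-LRC arrays of mice 3 and 5 (8.84 and 9.18), while its paired difference ran from 1.19 to 1.76.

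The fitted difference of Lgr5 was 1.61 ± 0.21 (3.05-fold, adjusted p = 0.00235), and it was higher in 6 of 6 mice, as were 9.87% of all genes. Kit differed by 1.26 ± 0.16 (2.39-fold, adjusted p = 0.00235), Muc2 by 1.29 ± 0.18 (2.44-fold, adjusted p = 0.00396) and Thbs1 by 1.45 ± 0.18 (2.73-fold, adjusted p = 0.00235). The probe sets of these genes moved together: 21 of the 22 for Lgr5, 21 of the 22 for Kit, 28 of the 29 for Muc2 and all 27 for Thbs1 were higher in YFP-LRC. In mice 1 and 4 alone the differences were 1.23 for Lgr5, 1.02 for Kit, 0.68 for Muc2 and 1.44 for Thbs1, and with the spread covariate they were 1.37, 1.23, 1.32 and 1.82, none of them called. Over all alternatives the adjusted p of Lgr5 ran from 0.000301 to 0.981, the highest being that of the covariate fit. Muc2 had its smallest paired difference, 0.36, in mouse 4. Kit is also a mast cell receptor, and the mean of the mast cell genes Cpa3, Mcpt1 and Mcpt2 was lower in YFP-LRC in 5 of 6 mice, by -0.25. These 3 genes had low signal, at percentiles 4.2 to 10.1 of level among all genes, and none was called. The part of mast cells in the Kit difference was not tested.

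**Figure D2:**
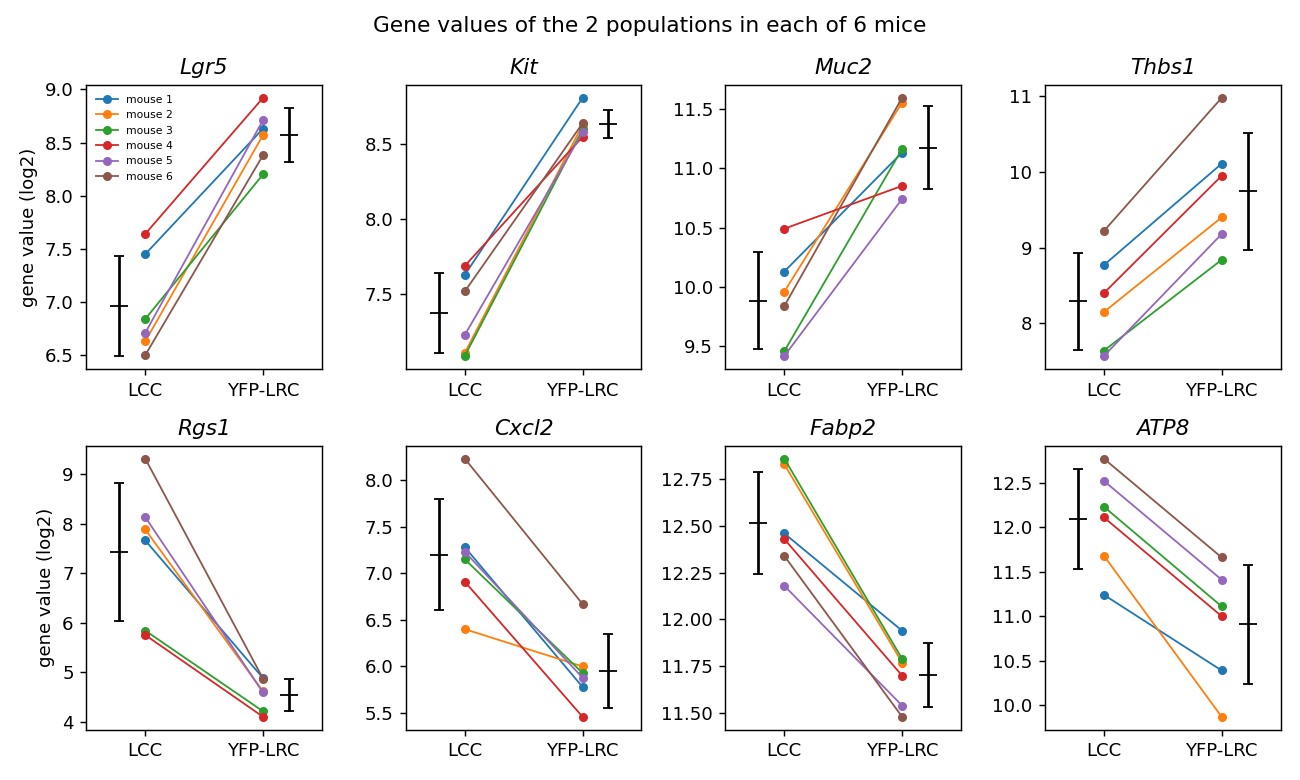
Gene values (log2) of 8 genes in the LCC and YFP-LRC arrays of each mouse. Coloured lines join the arrays of 1 mouse, black marks are the mean and SD of 6 arrays, and each panel has its own axis, which does not start at 0. All 6 lines rise for Lgr5, Kit, Muc2 and Thbs1 and fall for Rgs1, Cxcl2, Fabp2 and ATP8.

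The promoter of Muc2, the secretory gene of this group, is shown because the lineage factor Atoh1 binds E-boxes of the kind CAGCTG. The line gives the 250 bases before the start site at chr7:141690090-141690339 on the + strand of GRCm38.p6, from RefSeq, with the E-box in capitals.
Muc2: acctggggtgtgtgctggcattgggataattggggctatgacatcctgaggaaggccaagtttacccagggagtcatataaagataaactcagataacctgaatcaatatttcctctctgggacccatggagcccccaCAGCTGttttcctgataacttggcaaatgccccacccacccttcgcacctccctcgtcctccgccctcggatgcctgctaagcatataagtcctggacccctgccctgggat
The single match begins 112 bases before the start site. CAGCTG, which reads the same on both strands, occurs in this window in 11.9% of 13065 promoters of measured genes, in 11% of those of genes called higher and in 11% of those of genes called lower. The match describes these letters only. TATAAA, searched on both strands, was held by 11.3% of all these promoters, by 5.69% of those of genes called higher and by 19.4% of those of genes called lower.

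Other genes with large increases had varied functions. Tanc2, a scaffold protein of synapses, differed by 1.68 ± 0.30 (adjusted p = 0.00856), and ran from 6.99 to 8.21 in YFP-LRC (mean 7.62 ± 0.49) and from 5.15 to 6.85 in LCC (5.94 ± 0.62). Glce, the epimerase that matures heparan sulphate chains, differed by 1.48 ± 0.18 (adjusted p = 0.00235), and ran from 6.94 to 7.97 (mean 7.51 ± 0.35) and from 5.19 to 6.87 (6.03 ± 0.56). Neither gene had overlapping groups. Cep350, a centrosomal protein (1.59 ± 0.27), Mettl1, a tRNA methyltransferase (1.56 ± 0.27), and Rab1b, the GTPase of transport from the endoplasmic reticulum to the Golgi (1.54 ± 0.23), rose in 6 of 6 mice. The same held for Vldlr, a lipoprotein receptor (1.51 ± 0.24), Eri3, a member of an exonuclease family (1.51 ± 0.24), Ano10, an anoctamin (1.52 ± 0.28), and Shoc2, a scaffold of Ras signalling (1.46 ± 0.25). Their adjusted p values ran from 0.00526 to 0.00992. Cep350 rose most in mouse 3, where its LCC array was low (5.91, against 6.99 to 8.60 in the other LCC arrays). Eri3 differed by 0.11 and Shoc2 by 0.24 in mouse 1.

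Smaller but even increases, with a paired difference of at least 0.86 in every mouse, were found for Atp2a3, a calcium pump of the endoplasmic reticulum (1.00 ± 0.16), Usp49, a histone H2B deubiquitinase (1.19 ± 0.21), Stau1, a double-stranded RNA-binding protein (1.07 ± 0.15), and Pter, a phosphotriesterase-related gene (1.13 ± 0.21). Stau1 ran from 8.25 to 8.82 in YFP-LRC and from 7.11 to 7.92 in LCC.

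**Figure D3:**
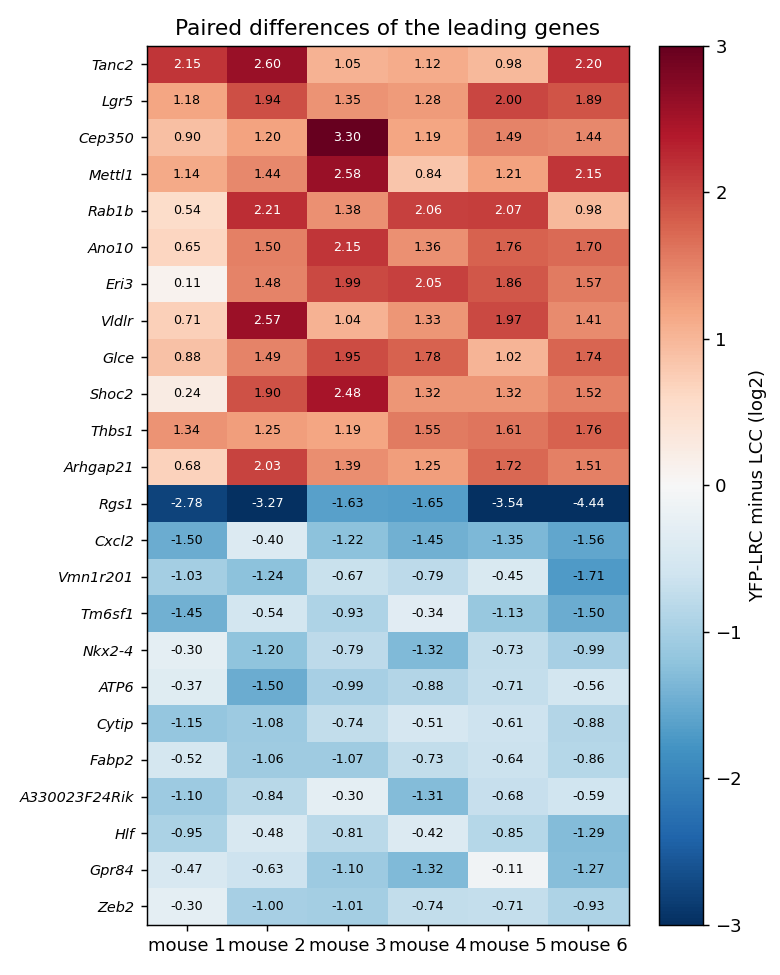
Paired differences (YFP-LRC minus LCC, log2) of 24 genes in each of 6 mice, 12 higher and 12 lower, chosen by the naming rule. Red is higher and blue lower in YFP-LRC; the colour scale ends at 3 in each direction and the printed numbers give values beyond it, such as -4.44 for Rgs1 in mouse 6. Each row keeps 1 colour across the mice, and mouse 1 has the palest cells for several higher genes such as Eri3 and Shoc2.

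Of 22 measured genes of crypt base columnar stem cells 11 were higher and 0 lower (50%, against 7.45% of all genes), and the list's median difference was 0.52, against 0.04 over all genes. The list's median level was 7.76, and in the fifth of the genes with the highest levels, which begins at 7.51, 18.9% were called higher. The list's median difference was 0.32 after repeated quantile normalization, where 4 members were higher, and 0.33 in mice 1 and 4 alone. Beside Lgr5, Soat1, an acyltransferase that esterifies cholesterol, rose by 1.17 ± 0.21 (adjusted p = 0.00856) and kept its call in all leave-out fits. Slc12a2, the basolateral sodium-potassium-chloride cotransporter, differed by 1.21 ± 0.25 (adjusted p = 0.0137, 0.059 without mouse 5). Smoc2, a secreted matrix protein of stem cells, differed by 0.89 ± 0.20 (adjusted p = 0.0179) and lost its call without mouse 2, 3 or 4 or the LCC array of mouse 6, with adjusted p up to 0.0531, and after repeated quantile normalization (0.62, adjusted p = 0.058). Ascl2, the transcription factor that maintains stem cell fate, was not called (-0.11 ± 0.21, adjusted p = 0.774).

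Of 18 Wnt targets, some of them also on the stem cell list, 7 were higher and 0 lower (38.9%, against 7.45% of all genes). Their median of 0.35 shrank to 0.08 after repeated quantile normalization, where 2 were higher and 1 lower. Ccnd1, cyclin D1 of the G1 phase, ran from 8.27 to 9.07 in YFP-LRC and from 7.43 to 8.15 in LCC, and differed by 0.86 ± 0.15 (adjusted p = 0.00856, 0.0857 after repeated quantile normalization). Myc, the growth transcription factor, differed by 0.91 ± 0.18 (adjusted p = 0.0132, 0.0577 without mouse 2). Cd44, the hyaluronan receptor, differed by 0.73 ± 0.16 (adjusted p = 0.0184) and lost its call without mouse 2, mouse 3 or the LCC array of mouse 6 (up to 0.0733) and after repeated quantile normalization (0.115). Of 8 genes linked to the reserve stem cell at position +4, 2 were higher (25%) and 0 lower. Their median was 0.08, and -0.06 after repeated quantile normalization. Among them Hopx (-0.21 ± 0.24, adjusted p = 0.62) and Bmi1 (-0.49 ± 0.28, adjusted p = 0.277) were not called.

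Of 18 goblet cell genes 8 were called higher and 0 lower (44.4%, against 7.45% of all genes), with a median of 0.54. The median was 0.30 after repeated quantile normalization, where 5 were higher and 1 lower, and 0.37 in mice 1 and 4. Not all goblet genes lay above 0. Tff3, the trefoil peptide secreted with mucus, differed by -0.34 ± 0.17 (adjusted p = 0.212) and Zg16, a lectin of goblet granules, by -0.71 ± 0.25 (adjusted p = 0.0835; -0.97 and called lower after repeated quantile normalization). Zg16 was also called with the mean over probe sets (-0.69) and without the Paneth array of mouse 6 (-0.71). Both genes were singled out after their values were seen. Ern2, the inositol-requiring enzyme of the mucous unfolded protein response, differed by 1.04 ± 0.18 (adjusted p = 0.00856) and Galnt12, which starts O-linked glycans, by 0.88 ± 0.16 (adjusted p = 0.00992). Sytl2, a synaptotagmin-like protein of granule docking, differed by 1.43 ± 0.28 (adjusted p = 0.0125, 0.0575 without mouse 2). Of 66 genes of mucin glycosylation 7 were higher (10.6%) and 0 lower, with a median of 0.05, near that of all genes. In this list Galnt7, another O-glycan transferase, ran from 9.49 to 10.11 in YFP-LRC and from 7.52 to 9.35 in LCC (1.42 ± 0.27, adjusted p = 0.0107), and St6galnac2, a sialyltransferase, differed by 0.93 ± 0.17 (adjusted p = 0.00992).

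Of 20 Paneth cell genes 5 were higher and 0 lower (25%, against 7.45% of all genes), with a median of 0.25. After repeated quantile normalization 2 were higher and 1 lower. The list's median level was 9.11. In the fifth of the genes with the highest levels, which begins at 7.51, 18.9% were called higher and the median difference was 0.38, above that of the list. Itln1, the secreted lectin intelectin, had a lowest, median and highest value of 11.18, 11.78 and 12.41 in YFP-LRC and 9.63, 10.49 and 11.61 in LCC, and differed by 1.24 ± 0.22 (adjusted p = 0.00856). Pnliprp2, a lipase, differed by 1.18 ± 0.22 (adjusted p = 0.00956). Mmp7, the protease that activates defensins, differed by 1.02 ± 0.21 (adjusted p = 0.015, 0.0563 without mouse 3, 0.0605 after repeated quantile normalization), and Habp2, a serine protease, by 1.06 ± 0.22 (adjusted p = 0.0134, 0.0577 without mouse 2, 0.0569 after repeated quantile normalization). Lyz1, the Paneth cell lysozyme, ran from 12.96 to 13.41 in YFP-LRC and from 12.93 to 13.39 in LCC (0.04 ± 0.11, adjusted p = 0.861; 0.36 and called with the mean over its probe sets in place of the median). Lyz1 was thus among the highest signals on arrays of both populations, with groups that overlapped almost fully.

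A minority of the genes of the secretory route was called, all of them higher. Of 28 genes of endoplasmic reticulum stress and secretion 7 were higher and 0 lower (25%, against 7.45% of all genes), with a median of 0.50 (0.25 after repeated quantile normalization, where 4 were higher). Of 49 genes of Golgi and endoplasmic reticulum transport 10 were higher and 0 lower (20.4%), with a median of 0.46 (0.19 and 4 likewise). Rab1b, described above, had the largest difference among them. The median levels of the 2 lists were 8.41 and 8.36. In the fifth of the genes with the highest levels, which begins at 7.51, 18.9% were called higher and the median difference was 0.38. The transport share and both medians were thus near those of genes of like level.

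Of 16 secretory progenitor genes 2 were higher and 0 lower (12.5%, against 7.45% of all genes), with a median of 0.19. Atoh1 ran from 7.18 to 8.08 in YFP-LRC and from 6.04 to 7.37 in LCC (0.93 ± 0.21, adjusted p = 0.0195). It lost its call without mouse 2, 3 or 4, the YFP-LRC array of mouse 4 or the LCC array of mouse 5 (up to 0.0709). The Notch ligands Dll1 (0.05 ± 0.18, adjusted p = 0.896) and Dll4 (0.11 ± 0.15, adjusted p = 0.669) were not called, and neither was the Notch target Hes1 (0.23 ± 0.13, adjusted p = 0.284). Of 14 Notch receptors and targets 0 were higher and 1 was lower (7.14%, against 1.22% of all genes). This was Hey2, a transcriptional repressor downstream of Notch (-0.54 ± 0.13, adjusted p = 0.0239), which lost its call without mouse 2, 3, 4 or 5, the YFP-LRC arrays of mice 1 or 5, or the LCC arrays of mice 5 or 6 (up to 0.0984).

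Of 17 enteroendocrine transcription factors 2 were higher and 0 lower (11.8% higher), and of 29 hormone and granule genes 4 were higher and 1 lower (13.8% higher), against 7.45% higher over all genes, with medians of 0.24 and 0.21. Sst, somatostatin, differed by 0.85 ± 0.17 (adjusted p = 0.0137, 0.0584 without mouse 3). Gip, the incretin hormone, averaged 12.30 ± 0.16 in YFP-LRC and 11.75 ± 0.38 in LCC and was not called (0.54 ± 0.22, adjusted p = 0.136; 0.69 and called with the mean over its probe sets), and neither was Chga, chromogranin A (0.37 ± 0.19, adjusted p = 0.231), or Neurog3, which starts the endocrine lineage (-0.16 ± 0.16, adjusted p = 0.561). Rfx6, an endocrine transcription factor, differed by 0.80 ± 0.20 (adjusted p = 0.0252) but its call ended in 10 of 24 leave-out fits, those without mouse 2, 4, 5 or 6, the YFP-LRC array of mouse 1, 2, 4 or 5, or the LCC array of mouse 2 or 5 (up to 0.0952). Of 20 tuft cell genes 4 were higher and 0 lower (20%), with a median of 0.21, and 1 was higher after repeated quantile normalization. Il17rb, the receptor for interleukin-25, differed by 0.79 ± 0.17 (adjusted p = 0.0162, up to 0.0652 without mouse 2, 3 or 5). Dclk1, the tuft cell kinase, differed by 0.62 ± 0.16 (adjusted p = 0.0325, 0.276 after repeated quantile normalization). Its call ended in 13 of 24 leave-out fits, those without mouse 1, 2, 3, 4 or 6, the YFP-LRC array of mouse 1, 3, 4 or 6, or the LCC array of mouse 3, 4, 5 or 6 (up to 0.098).

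Some cell division genes were higher in the label-retaining cells. Of 26 genes of G2 and mitosis 6 were higher and 0 lower (23.1%, against 7.45% of all genes), with a median of 0.51. The median was 0.40 after repeated quantile normalization, where 3 were higher, and 0.16 with the spread covariate. Of 23 S phase genes 2 were higher and 0 lower (8.7%, near the 7.45% of all genes), and 2 were higher and 1 lower under both other scalings. Their median was 0.41 (0.21 after repeated quantile normalization, 0.06 with the spread covariate). Mki67, the proliferation antigen, had a lowest, median and highest value of 10.02, 10.80 and 11.40 in YFP-LRC and 8.95, 10.51 and 11.04 in LCC, with overlapping groups (0.53 ± 0.21, adjusted p = 0.127), and was called, at 0.69, without the LCC array of mouse 1. Pcna, the replication clamp, was higher in 3 of 6 mice (0.33 ± 0.20, adjusted p = 0.312). Prim1, a primase subunit, differed by 1.23 ± 0.29 (adjusted p = 0.0217) and Cenpe, a mitotic kinesin, by 0.80 ± 0.18 (adjusted p = 0.0205). Both lost their calls without mouse 2, 3 or 5, the YFP-LRC array of mouse 5 or the LCC array of mouse 6, Prim1 also without the LCC array of mouse 2, and Cenpe also without the YFP-LRC array of mouse 4 or the LCC array of mouse 5 (up to 0.0683 and 0.0778).

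Of 8 cyclin-dependent kinase inhibitors 0 were higher and 2 were lower (25%, against 1.22% of all genes). They were Cdkn1c, which codes for p57 (-0.50 ± 0.13, adjusted p = 0.033), and Cdkn2d, which codes for p19INK4d (-0.55 ± 0.15, adjusted p = 0.041). The call of Cdkn1c ended in 12 of 24 leave-out fits, those without mouse 2, 3, 4 or 5 or without either array of these mice (up to 0.117). That of Cdkn2d ended in 15, those without mouse 2, 3, 4, 5 or 6, the YFP-LRC array of any of these mice, the LCC array of mouse 2, 3, 5 or 6, or the Paneth array of mouse 3 (up to 0.137). Cdkn1a, which codes for p21, was not called (0.10 ± 0.19, adjusted p = 0.784), and neither was Cdkn1b, which codes for p27 (0.09 ± 0.14, adjusted p = 0.729). The signs of both turned after repeated quantile normalization, to -0.19 and -0.24.

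Of 47 centrosome and centriole genes 15 were higher and 0 lower (31.9%, against 7.45% of all genes), with a median of 0.59. The median was 0.47 after repeated quantile normalization, where 10 were higher, 0.42 in mice 1 and 4, and 0.30 with the spread covariate. Cdk5rap2, which anchors microtubule nucleation at the centrosome, ran from 7.52 to 8.05 in YFP-LRC and from 6.53 to 7.32 in LCC (0.81 ± 0.13, adjusted p = 0.00689, 31 of its 40 probe sets higher). Cep162, a protein of the ciliary base, differed by 1.13 ± 0.22 (adjusted p = 0.0115), and Cep43, a centriolar satellite and anchoring protein, by 0.91 ± 0.19 (adjusted p = 0.0155, up to 0.0592 without mouse 2, 3 or 5). Of 39 genes of intraflagellar transport and the cilium 4 were higher (10.3%) and 0 lower. Among the higher ones was Ift20, which moves between the Golgi and the cilium (0.98 ± 0.18, adjusted p = 0.0094).

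Of 20 replication-dependent histone genes 4 were higher (20%) and 1 lower (5%), against 7.45% and 1.22% of all genes, with a median of 0.05. H2ac12 ran from 12.29 to 13.11 in YFP-LRC and from 11.04 to 11.80 in LCC, without overlap (1.22 ± 0.15, adjusted p = 0.00235). H2ac15 (1.11 ± 0.18, adjusted p = 0.00621) and H2ac6 (1.01 ± 0.18, adjusted p = 0.00856) code, like H2ac12, for the core histone H2A. H2ac12 and H2ac15 are each measured by 1 probe set and H2ac6 by 2, and histone genes are near-identical copies, so the signal cannot be assigned to 1 gene with certainty. H2bc22 was lower (-0.74 ± 0.16, adjusted p = 0.0171, up to 0.0698 without mouse 2 or 3).

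Genes of RNA and protein production were higher in part. Of 49 translation initiation factors 10 were higher and 0 lower (median 0.36), of 33 aminoacyl-tRNA synthetases 7 and 0 (median 0.28), of 76 splicing factors 12 and 0 (median 0.35) and of 37 proteasome subunits 6 and 0 (median 0.31). The shares higher were 20.4%, 21.2%, 15.8% and 16.2%, against 7.45% of all genes. The lists' median levels were 7.45 to 8.63. In the fifth of the genes with the highest levels, which begins at 7.51, 18.9% were called higher. The median differences were 0.05 to 0.15 after repeated quantile normalization, with 2, 3, 8 and 1 members higher and 1, 0, 3 and 0 lower. Wars, the cytoplasmic tryptophanyl-tRNA synthetase, ran from 8.32 to 9.12 in YFP-LRC and from 6.34 to 7.75 in LCC (1.41 ± 0.24, adjusted p = 0.00757, all 14 probe sets higher). Cytoplasmic ribosomal protein genes did not share this: of 70, 4 were higher (5.71%) and 2 lower (2.86%), with a median of 0.02. Of 76 mitochondrial ribosomal protein genes 3 were higher (3.95%) and 0 lower, with a median of 0.13. After repeated quantile normalization 2 were higher and 4 lower, with a median of -0.06. Mrps31 was among the 3 higher ones (1.14 ± 0.21, adjusted p = 0.00939). Of 44 autophagy and lysosome genes 3 were higher (6.82%, near the 7.45% of all genes) and 0 lower. Becn1, which codes for the autophagy initiator Beclin 1, was 1 of them (0.84 ± 0.15, adjusted p = 0.00939, 0.0805 after repeated quantile normalization).

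Of 20 genes of epithelial identity 3 were higher (15%) and 0 lower, with a median of 0.16 that was -0.08 after repeated quantile normalization. The list's median level was 9.35. Over all genes 7.45% were higher and 1.22% lower, and 18.9% were higher in the fifth with the highest levels, which begins at 7.51. Krt18, a keratin of simple epithelia, ran from 10.62 to 11.36 in YFP-LRC and from 9.45 to 10.52 in LCC (1.03 ± 0.19, adjusted p = 0.0103). Vil1, the brush border protein villin, was not called (0.12 ± 0.19, adjusted p = 0.726), nor was Epcam (0.36 ± 0.13, adjusted p = 0.102), which was called, at 0.44, without the LCC array of mouse 1. Of 28 genes of Hippo, EGF and other growth factor signalling 4 were higher (14.3%), Kit among them, and 1 lower (3.57%). Fgfr2, a receptor of fibroblast growth factors, differed by 0.86 ± 0.19 without overlap of its groups (adjusted p = 0.0162, up to 0.0574 without mouse 2 or 6). Of 24 immediate early and dissociation stress genes, with a median level of 8.07, 4 were higher (16.7%) and 1 lower (4.17%). Their median of 0.29 was 0.04 after repeated quantile normalization, where 0 were higher. Nr4a1, an orphan nuclear receptor induced by stimulation, differed by 0.80 ± 0.16 (adjusted p = 0.0129, 0.0582 without mouse 3, 0.109 after repeated quantile normalization).

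**Figure D4:**
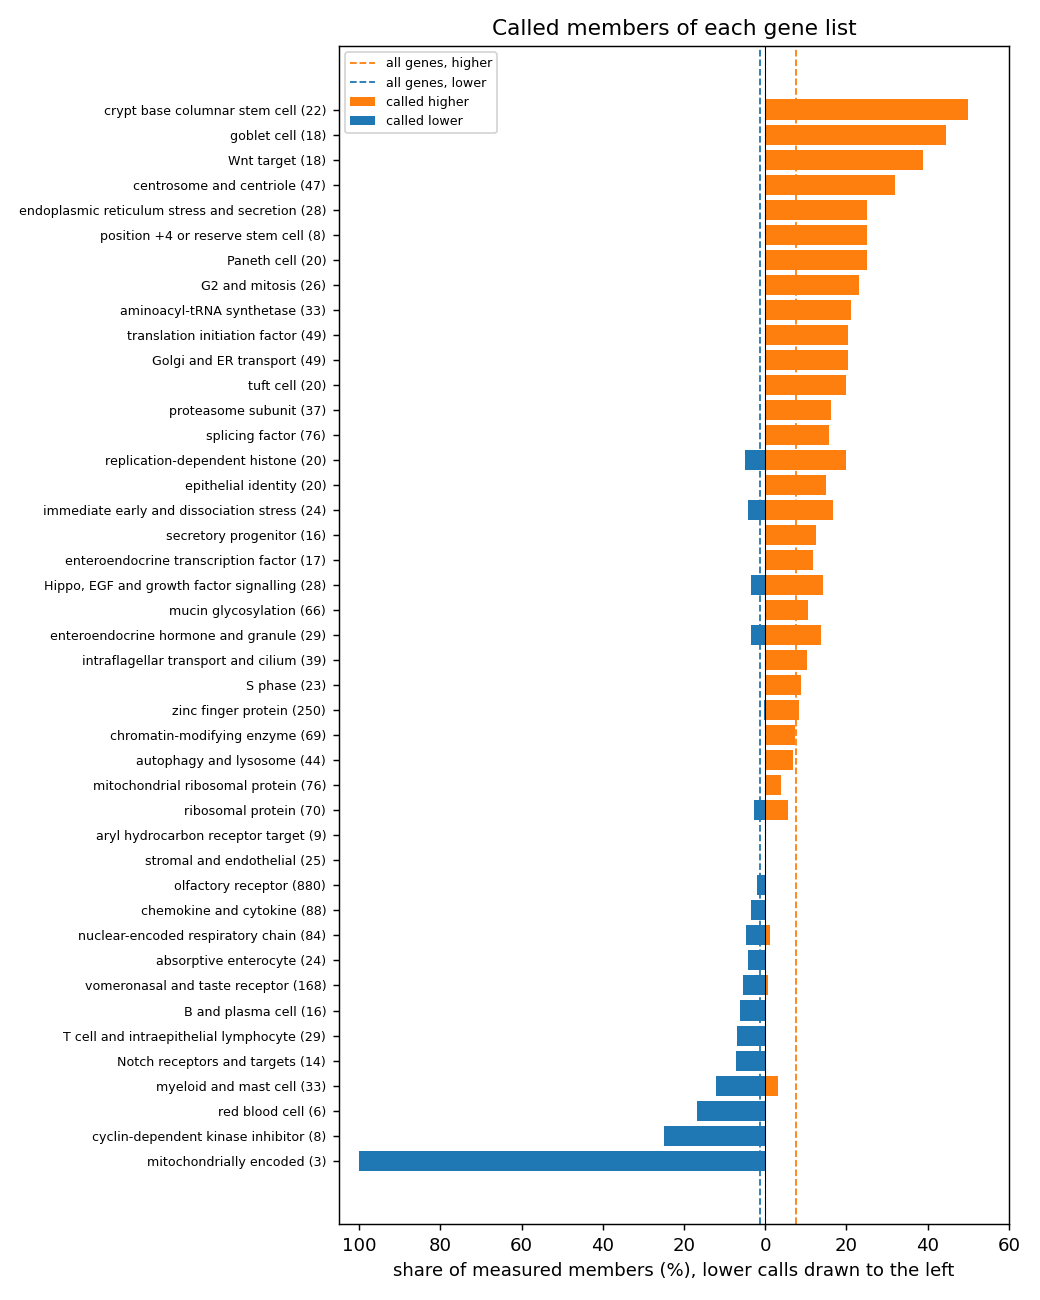
Share (%) of the measured members of each gene list that were called higher (orange, to the right) or lower (blue, to the left) in YFP-LRC, with the number of measured members in brackets. Dashed lines are the shares over all genes, 7.45% higher and 1.22% lower. Stem cell, goblet cell, Wnt target and centrosome lists have the longest bars to the right, and the 3 mitochondrially encoded genes were all lower.

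Fewer genes were lower in label-retaining cells, and Rgs1 and Cxcl2 had the largest differences among those with at least 3 probe sets that kept their calls in all leave-out fits. Rgs1, a regulator of G protein signalling of activated lymphocytes, had a lowest, median and highest value of 4.10, 4.60 and 4.88 in YFP-LRC and 5.75, 7.77 and 9.31 in LCC. Cxcl2, a neutrophil-attracting chemokine, had 5.46, 5.90 and 6.67 in YFP-LRC and 6.40, 7.19 and 8.23 in LCC. Rgs1 did not overlap between the groups, a separation seen in this direction at 0.373% of all genes, whereas the Cxcl2 groups touched because the YFP-LRC array of mouse 6 lay above the LCC array of mouse 2. Rgs1 differed by -2.89 ± 0.35 (7.39-fold lower, adjusted p = 0.00235) and Cxcl2 by -1.25 ± 0.16 (2.37-fold lower, adjusted p = 0.00235). Both were lower in 6 of 6 mice, as were 5.34% of all genes, and in mice 1 and 4 alone the differences were -2.21 and -1.48, and with the spread covariate -2.62 and -1.15, neither called. The LCC values of Rgs1 fell into 2 levels, with 5.84 and 5.75 in mice 3 and 4 and 7.66 to 9.31 in the other mice. Cytip, a cytohesin-binding protein of blood cells, was lower without overlap (-0.83 ± 0.14, adjusted p = 0.00764, all 10 probe sets lower).

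The promoter of Cxcl2 is shown because this gene is a textbook target of the transcription factor NF-κB, whose sites resemble GGG, any 2 bases, then TTTCC. The line gives the 250 bases before the start site at chr5:90903649-90903898 on the + strand of GRCm38.p6, from RefSeq, with the matches in capitals.
Cxcl2: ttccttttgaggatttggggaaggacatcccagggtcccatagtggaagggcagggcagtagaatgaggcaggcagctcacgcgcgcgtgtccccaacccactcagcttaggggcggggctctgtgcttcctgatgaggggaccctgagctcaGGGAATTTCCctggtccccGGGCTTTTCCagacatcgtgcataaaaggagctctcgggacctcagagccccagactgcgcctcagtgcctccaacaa
Matches begin 97 and 78 bases before the start site. The motif, searched on both strands, occurs in 1.32% of the 13065 promoters, in 1.3% of those of genes called higher and in 1.94% of those of genes called lower, which is 3 promoters of 155.

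Whole lists of blood and stromal cell genes moved less than these examples. Of 29 T cell and intraepithelial lymphocyte genes 0 were higher and 2 lower (6.9%, against 1.22% of all genes). Their median was -0.17, and 24 of the 29 lay below 0. Cd3e, a T cell receptor subunit, was not called (-0.08 ± 0.19, adjusted p = 0.824), and neither was Ptprc, the pan-leukocyte antigen CD45 (-0.66 ± 0.22, adjusted p = 0.0751), which was called, at -0.83, without the YFP-LRC array of mouse 4. Of 33 myeloid and mast cell genes 4 were lower (12.1%) and 1, Kit, was higher (3.03%), with a median of -0.19. Of 25 stromal and endothelial genes 0 were called. Il1b, the cytokine interleukin-1β, ran from 6.02 to 6.39 in YFP-LRC and from 6.61 to 8.13 in LCC (-0.93 ± 0.21, adjusted p = 0.0197). Its call ended without mouse 2, 3 or 6, the YFP-LRC array of mouse 5 or the LCC array of mouse 6 (up to 0.0635). Srgn, the proteoglycan of leukocyte granules, differed by -1.40 ± 0.31 (adjusted p = 0.0181, up to 0.0756 without mouse 2, mouse 5 or either array of mouse 5). Of 16 B and plasma cell genes 1 was lower (6.25%). This was Jchain, the joining chain of secreted antibodies (-0.79 ± 0.18, adjusted p = 0.02, up to 0.0663 without mouse 2, mouse 3, the YFP-LRC array of mouse 4 or the LCC array of mouse 6). Hbb-b1, a globin of red cells measured by 2 probe sets, ran from 4.34 to 4.85 in YFP-LRC and from 5.15 to 9.54 in LCC (-2.34 ± 0.51, adjusted p = 0.0174, 0.0582 without mouse 3). Its high LCC values were those of mice 3 and 6, at 8.94 and 9.54. The part of admixed blood cells in these differences was not tested.

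The transcripts of mitochondrial DNA that were measured were lower in label-retaining cells. All 3 measured mitochondrially encoded genes were called lower and kept their calls in all leave-out fits. ATP8, a subunit of the ATP synthase, had a lowest, median and highest value of 9.87, 11.05 and 11.66 in YFP-LRC and 11.24, 12.17 and 12.77 in LCC (-1.18 ± 0.14, adjusted p = 0.00235). ATP6, its neighbour in the same complex, differed by -0.84 ± 0.15 (adjusted p = 0.00909) and COX2, a subunit of cytochrome c oxidase, by -0.72 ± 0.13 (adjusted p = 0.00992). The groups overlapped for all 3 genes, yet each was lower in 6 of 6 mice, and the mice with the lowest values in one population, 1 and 2, also had the lowest in the other. ATP8 and ATP6 overlap on the mitochondrial genome and have near-identical copies in the nuclear genome, so these probe sets are not independent measurements. Of 84 nuclear-encoded respiratory chain genes 1 was higher and 4 were lower (4.76%, against 1.22% of all genes), with a median of -0.03. After repeated quantile normalization 0 were higher and 11 lower, with a median of -0.28 against -0.04 over all genes. Cox6c, a nuclear-encoded cytochrome c oxidase subunit measured by 1 probe set, differed by -0.65 ± 0.15 (adjusted p = 0.0191, up to 0.0705 without mouse 2, 3 or 5).

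Fabp2, the intestinal fatty acid-binding protein of enterocytes, had 11.48, 11.73 and 11.94 in YFP-LRC and 12.18, 12.45 and 12.86 in LCC as lowest, median and highest value, without overlap (-0.81 ± 0.13, adjusted p = 0.00689, all 5 probe sets lower). It was the only one called of 24 absorptive enterocyte genes (4.17%, against 1.22% lower over all genes), of which 16 lay below 0, with a median of -0.14. The signal of Fabp2 was high in both populations. Further lower genes were the homeobox gene Nkx2-4 (-0.89 ± 0.17, adjusted p = 0.00992), the circadian output transcription factor Hlf (-0.80 ± 0.15, adjusted p = 0.00955), the transmembrane gene Tm6sf1 (-0.98 ± 0.17, adjusted p = 0.00757) and the transcript A330023F24Rik (-0.80 ± 0.15, adjusted p = 0.0113). Gpr84, a fatty acid receptor of myeloid cells (-0.82 ± 0.16, adjusted p = 0.0114), and Zeb2, a transcriptional repressor (-0.78 ± 0.15, adjusted p = 0.0119), were lower too, with adjusted p of 0.0523 and 0.0539 without mouse 3.

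Chemosensory receptor genes made up a share of the lower calls at low signal. Of 880 olfactory receptor genes 18 were lower (2.05%) and 0 higher, and of 168 vomeronasal and taste receptor genes 9 were lower (5.36%) and 1 higher, against 1.22% lower over all genes. After repeated quantile normalization 8 and 1 of them were lower, when 417 of 16358 genes were, and with centring 31 and 13. Their median levels were 4.71 and 4.04, below the median of all genes. Of the 3272 measured genes with the lowest levels, up to 5.50, 2.32% were called lower and 0.306% higher. As deposited, the olfactory share of lower calls was thus not above that of low-signal genes, whereas the vomeronasal and taste share was. After repeated quantile normalization 36 of these 3272 low-signal genes were lower, against 8 of 880 and 1 of 168 in the lists. Under that scaling neither list had a share above that of low-signal genes. Vmn1r201, a vomeronasal receptor, ran from 2.45 to 2.77 in YFP-LRC and from 3.21 to 4.41 in LCC (-0.98 ± 0.17, adjusted p = 0.00764). The median differences of these lists moved with scaling and with the spread covariate: that of the olfactory receptors was -0.12 as deposited, -0.09 after repeated quantile normalization and 0.10 with the spread covariate.

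The direction of the calls followed the signal level. When genes were sorted by mean level into 5 bins of equal size, the median difference was -0.13, -0.05, 0.03, 0.19 and 0.38 from the lowest to the highest bin. Higher calls numbered 10, 70, 155, 363 and 620 in these bins, and lower calls 76, 41, 26, 24 and 32. After repeated quantile normalization the highest bin held 233 higher and 101 lower calls. Of the 139 higher genes whose calls were kept in all leave-out fits, 78 lay in the highest bin and 0 in the lowest. At the level of probe sets, a median of 85% of a called gene's probe sets differed in the gene's direction, against 91.7% for the 153 genes kept in all leave-out fits and 69.2% over all genes.

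The mice did not contribute evenly. For genes called higher in a fit of the other 5 mice, the held-out mouse had a higher YFP-LRC value for 1073 of 1668 genes (64.3%) in mouse 1, for 495 of 561 (88.2%) in mouse 4, and for 89.7% to 93.8% in mice 2, 3, 5 and 6. Over all genes the share higher was 46.5% in mouse 1 and 53.3% to 57.3% in the other mice. The median difference of the genes called higher was 0.15 in held-out mouse 1, 0.58 in mouse 4 and 0.87 to 0.98 in the other mice. The LCC arrays of mice 1 and 4 were those that correlated best with the other 17 arrays (0.938 and 0.928). For genes called lower in the other 5 mice, the held-out mouse was lower for 173 of 235 genes in mouse 1, 23 of 28 in mouse 2, 24 of 28 in mouse 3, 43 of 63 in mouse 4, 41 of 53 in mouse 5 and 68 of 83 in mouse 6. These shares were 73.6% in mouse 1 and 68.3% to 85.7% in the other mice. Over all genes the share lower was 53.5% in mouse 1 and 42.7% to 46.7% in the other mice. Across genes, which are not independent replicates, the paired differences of mouse 1 correlated with those of the other mice at 0.12 to 0.16, and those of the other mice with each other at 0.25 to 0.41.

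**Figure D5:**
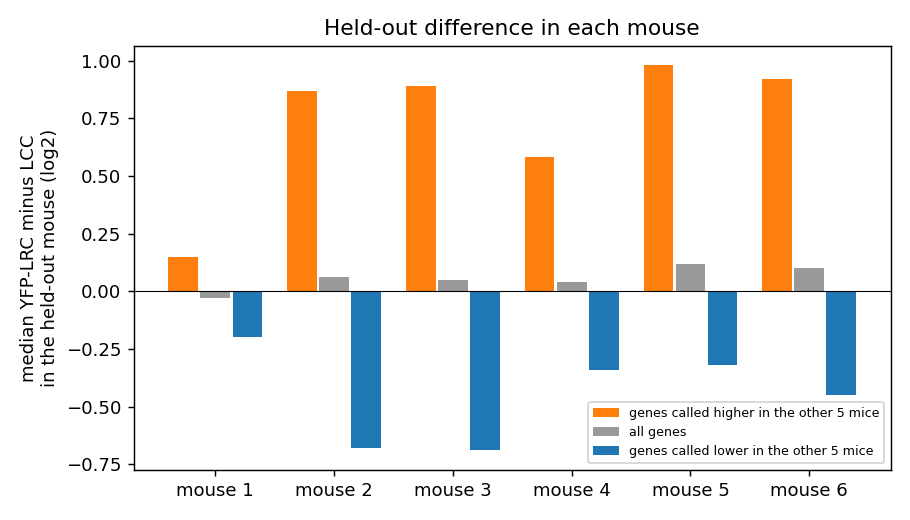
Median difference (YFP-LRC minus LCC, log2) in each mouse of the genes called higher (orange) or lower (blue) in a fit of the other 5 mice, and of all genes (grey). The bar for higher genes is 0.15 in mouse 1, 0.58 in mouse 4 and 0.87 to 0.98 in the other mice, and every mouse has the same sign for both sets.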

How the data were processed

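RNA of sorted intestinal epithelial cells was measured on Affymetrix Mouse Exon 1.0 ST arrays, 18 in all, of which the 6 YFP-LRC and 6 LCC arrays are compared. The deposited values are on a log2 scale. They are RMA summaries from Affymetrix Power Tools 1.12.0 for core probe sets of the mm9 build, per the file headers, in which the authors corrected background, quantile-normalized the 18 arrays jointly and fitted each probe set by median polish. Such normalization forces 1 distribution of probe set values on all arrays, so differences are relative to each array's total signal. Both deposited tables hold the same values. For arrays, the number of mice limits the precision. No scan date, batch or RNA quality value was used here.

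Of 229581 probe sets, 209279 mapped to 1 symbol and were used, and 4446 with several symbols and 15856 with none were left out. A gene's value was the median over its probe sets, with no filter on low values. Symbols were updated through RefSeq names of GRCm38.p6, and 45 kept the older name. Promoter sequences come from RefSeq (GRCm38.p6), whose table held 13065 of the measured genes, and no entry for Lgr5 or Rgs1.

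Gene differences were fitted with limma 3.58.1 (R 4.3.3; lmFit and eBayes, 2-sided, Benjamini-Hochberg over 16358 genes, called at 0.05) with population and mouse as terms over all 18 arrays, with 10 residual degrees of freedom. The procedure was tested on simulated data. The design text takes all populations from each mouse, which is where the pairing comes from. Deviations from the group means of same-mouse YFP-LRC and LCC arrays correlated at 0.222, 0.019, 0.074, 0.271, 0.015 and 0.406 in mice 1 to 6. Separate mice are separate animals. Single array measures were compared by an exact paired permutation test. The alternatives were the block (none, random), 12 arrays alone, 2 other scalings, the mean over probe sets, genes with at least 3 probe sets, genes above the median level, array weights, another prior, a covariate for residual spread, mice 1 and 4 alone, each of 6 mice and each of 18 arrays left out in turn, and the other deposited table. The last of these has the same fit by construction, since both tables hold the same values.

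The genes named are, per direction, the 12 largest and the 10 most even called differences among genes with at least 3 probe sets that kept the call in all 24 leave-out fits, up to 4 called members per list, and a fixed set of crypt markers. The 43 lists came from general knowledge of these cells and from symbol patterns. The members and lists were chosen with earlier results of these data known, so nothing here is independent of them. Lists were described by counts and medians, without a test.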

Additional observations from a re-analysis of the deposited data

Results flagged for a closer look

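In 13 of 198 groups of 6 arrays examined, 1 array lay far from the other 5 by Dixon's criterion, which chance alone meets in about 1 in 20 groups. Among the higher genes, Kit was 8.81 on the YFP-LRC array of mouse 1 against 8.55 to 8.64 on the other 5. Ano10 was 8.12 on that of mouse 6 against 7.45 to 7.5, and Cdk5rap2 was 8.05 on that of mouse 4 against 7.52 to 7.69. On the low side, Soat1 was 8.22 on the YFP-LRC array of mouse 3 against 8.76 to 8.93, Cd44 was 7.61 on that of mouse 6 against 8.10 to 8.38, and Ift20 was 8.97 on that of mouse 2 against 9.47 to 9.63. Among the lower genes, Hlf was 5.82 on the YFP-LRC array of mouse 2 against 4.89 to 5.21. The LCC array of mouse 1 stood apart on the low side for 2 genes, with 11.75 for ATP6 against 12.60 to 13.08 and 7.03 for Cdkn1c against 7.45 to 7.64. Zg16, which was not called, was lowest on both arrays of mouse 6, at 6.76 in YFP-LRC and 8.00 in LCC. Dll4, also not called, was 7.27 on the LCC array of mouse 6 against 6.45 to 6.70. The median of an array's correlations with the other 17 was 0.916 for the YFP-LRC array of mouse 6 against 0.939 to 0.95 for the other YFP-LRC arrays.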

How the results depend on the processing

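Against 1218 higher, 199 lower, 286 at least 2-fold higher and 13 at least 2-fold lower genes, the counts were, in this order, 717, 86, 235 and 12 in the 12 arrays with the block, and 381, 34, 144 and 4 in the 12 arrays without it. With all 18 arrays and no replicate block they were 1035, 150, 265 and 8, with 1093 of the 1417 calls shared. The block, which pairs the arrays by mouse, ended the calls of no gene named here that the fit without it made, and 6 of the 75 called genes named here were not called without it (Rfx6 0.052, Sst 0.0611, Dclk1 0.123, Prim1 0.0683, Cenpe 0.13 and Jchain 0.0505 as adjusted p). After repeated quantile normalization the counts were 549, 417, 127 and 32, with centring 728, 420, 153 and 26, with the mean over probe sets 1943, 554, 128 and 13, with genes above the median level 1422, 97, 276 and 3, and with at least 3 probe sets 1286, 197, 281 and 7. With the residual spread as a covariate (703 genes at an unadjusted p under 0.05) and in mice 1 and 4 alone (1542) all 4 counts were 0. In the covariate fit the median standard error of the called genes rose from 0.19 to 0.50 and their median absolute difference went from 0.80 to 0.72, and 1386 of 1417 kept their sign. For each of the 75 called genes named here the covariate gave the highest adjusted p of all alternatives, 0.981 to 0.997. Without the LCC arrays of mice 5 and 6 the counts were 76, 20, 44 and 7. Leaving out 1 mouse or 1 array gave 234 to 2133, 28 to 374, 128 to 640 and 7 to 29. The random block, array weights and another prior stayed within 1.5 times of all 4 counts. The other deposited table holds the same values, so its counts could not differ.

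None of the 75 called genes named here turned its sign under any alternative. Genes that were not called did: after repeated quantile normalization Cdkn1a was -0.19, Cdkn1b -0.24, Vil1 -0.13, Hes1 -0.03, Dll1 -0.12 and Dll4 -0.04. With centring Lyz1 was -0.06, Cdkn1b -0.01 and Dll1 -0.05. With the covariate Neurog3 was 0.25, Ptprc 0.41, Hopx 0.15, Dll1 -0.10 and Dll4 -0.14. With the mean over probe sets Hopx was 0.06 and Ascl2 0.09. In mice 1 and 4 Cdkn1a was -0.31, Vil1 -0.25 and Hopx 0.03, and without the LCC arrays of mice 5 and 6 Vil1 was -0.09. In the leave-out fits Cdkn1a ran from -0.08 to 0.21, Cdkn1b from -0.03 to 0.15, Vil1 from -0.04 to 0.30, Cd3e from -0.21 to 0.07 and Dll1 from -0.08 to 0.19. The cause of these changes was not tested.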

Other observations

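Several further gene groups were described by the same counts. Of 250 zinc finger protein genes 21 were higher (8.4%) and 1 lower (0.4%), against 7.45% and 1.22% of all genes, with a median of 0.15. Of 69 chromatin-modifying enzymes 5 were higher (7.25%, near the 7.45% of all genes) and 0 lower. Their median of 0.33 was 0.18 after repeated quantile normalization and 0.09 in mice 1 and 4 alone. Of 9 targets of the aryl hydrocarbon receptor, the receptor that βNF activates, 0 were called, with a median of -0.11, and 7 of the 9 lay below 0. Of 88 chemokines and cytokines 0 were higher and 3 were lower (3.41%), with a median of -0.11. Of 6 red blood cell genes 1 was lower (16.7%), Hbb-b1, and the list's median was 0.09. The share of genes higher in YFP-LRC within a mouse was 46.5% in mouse 1, 54.4% in mouse 2, 53.7% in mouse 3, 53.3% in mouse 4, 57.3% in mouse 5 and 56.9% in mouse 6.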
